A study of Homo sapiens with 8 samples.

Results

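Granins are acidic secretory proteins that are packed into dense core granules, and prohormone processing enzymes cut, trim and amidate the peptides stored there. The 10 genes described here were listed by name as members of these protein families: 6 granins (CHGA, CHGB, SCG2, SCG3, SCG5 and VGF), 2 prohormone convertases (PCSK1 and PCSK2), the carboxypeptidase gene CPE and the amidating enzyme gene PAM. All 10 had a row among the 60659 genes of the count table.

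The cells were of the human neuroblastoma line SK-N-SH, in 4 groups of 2 biological replicates whose rRNA-depleted RNA was sequenced, and all had received 10 µM all-trans retinoic acid (ATRA) for 24 h in differentiation medium. In the overexpression experiment, cells with a doxycycline (Dox) induced FLAG-tagged ZMYND8, carried by a lentiviral pInducer20 vector and selected with G418, were compared with Parental cells given ATRA and Dox. In the knockdown experiment, cells with a lentiviral shRNA against ZMYND8 (KD) were compared with KD control cells, and no Dox is named for these. ZMYND8 is a chromatin reader, and the study asked how it shapes transcription after ATRA. The Parental group is not stated to carry a vector or to have been selected, so vector, selection and ZMYND8 cannot be told apart in that comparison. The KD control and Parental groups differ in vector, Dox and experiment at once, so each manipulation was compared only with its own control. The paper's methods describe lentiviral shRNA in SH-SY5Y and neural stem cells, with puromycin selection, and not in SK-N-SH. Whether the cells of the knockdown experiment differ from the others in more than vector and Dox cannot be told here.

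Neuroendocrine cells sort prohormones into dense core granules at the trans-Golgi network, where granins aggregate as calcium and acidity rise. Inside the granule PCSK1 and PCSK2 cleave at paired basic residues, CPE removes the basic residues left behind, and PAM amidates the C-terminus of peptides that end in glycine. Sympathetic neurons, chromaffin cells and neuroblastoma cells of the adrenergic kind use this route, and CHGA is a widely used neuroendocrine marker.

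Total counts ran from 38316523 to 56256979 per library. ZMYND8 itself was read 3089 and 3612 times in Parental cells and 220691 and 182849 times with overexpression. It was read 3128 and 3374 times in KD control cells and 1641 and 1640 times after knockdown. Its log2 change was 5.87 ± 0.060 (SE) with overexpression (adjusted p = 5.04e-12, edgeR quasi-likelihood test) and -0.94 ± 0.056 (SE) with knockdown (adjusted p = 2.20e-06, edgeR), so the targeted gene followed its labels in both experiments. The share of counts on mitochondrial genes was 0.110 to 0.168% in the overexpression experiment and 2.92 to 3.41% in the knockdown experiment. A gene is called changed here at an edgeR adjusted p below 0.05, an absolute log2 change of at least 1 and a mean normalised read count above 20. Normalised read counts are scaled to the average library of their comparison.

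The 3 promoter sequences below are shown first because the results return to their genes. RefSeq windows on GRCh38.p14, from 250 bases before to 50 bases after a start, were found for 8 of the 10 genes, 12 windows in all. CHGB and SCG2 were not in that table. The letters of the cyclic AMP response element (CRE), TGACGTCA, which read the same on both strands, were found in the windows of 3 members, CHGA, VGF and PCSK1, against 649 of 35116 windows of all genes (1.85%). Each stretch below holds 60 bases of the gene's own strand with the CRE letters in capitals.
CHGA, chr14:92923070-92923129, plus strand, with the CRE starting 54 bases upstream of the start: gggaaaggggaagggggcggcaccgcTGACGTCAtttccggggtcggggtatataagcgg
VGF, chr7:101165615-101165674, minus strand, with the CRE starting 79 bases upstream: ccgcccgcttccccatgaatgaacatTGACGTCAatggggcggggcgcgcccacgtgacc
PCSK1, chr5:96433292-96433351, minus strand, with the CRE starting 77 bases upstream in 1 of its 2 windows: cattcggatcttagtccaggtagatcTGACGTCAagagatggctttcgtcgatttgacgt
The other letters searched, TTCAGCACC on either strand, are the left part of the REST-binding element known as RE1. They were found in the window of SCG3 alone among the members, from base 9 after its start, and in 132 of all windows (0.376%). A match describes letters only, and no binding was measured here.

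Levels per length showed a wide range among the 10 genes. RPKM, the reads per kilobase scaled to library size, computed over all 8 libraries, put VGF, SCG2 and PAM at the top and left PCSK1 and PCSK2 at or near 0 in 3 of the 4 groups. VGF encodes a neurotrophin-responsive peptide precursor, and its RPKM was 145 and 167.3 in the Parental libraries, 652.5 and 690.6 with overexpression, 140.6 and 139.5 in KD control and 110.4 and 108.9 after knockdown. With overexpression VGF stood at rank 14 by RPKM of the 39409 genes with any count, compared with rank 154 in Parental cells. SCG2, the precursor of secretoneurin, had 158.1 RPKM in both Parental libraries, 128.8 and 129.8 with overexpression, 247.1 and 268.5 in KD control and 186.9 and 212.4 after knockdown, and none of its groups overlapped. SCG2 ranked between 94 and 149 in all 4 groups.

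SCG3 and CHGB were set apart by a low level in 1 group. SCG3 encodes a granin that tethers CHGA to the granule membrane, and its RPKM was 0.882 ± 0.012 (SD, n = 2) in Parental cells, 19.7 ± 0.215 with overexpression, 20.3 ± 1.37 in KD control and 16.9 ± 1.87 after knockdown. Overexpression and KD control overlapped for SCG3, and Parental cells lay far under all others. CHGB, a major granin of chromaffin granules, had 1.14 ± 0.068 RPKM (SD, n = 2) in Parental cells, 6.65 with overexpression in both libraries, 30.1 ± 0.516 in KD control and 21.4 ± 2.47 after knockdown. The 4 groups of CHGB kept separate ranges, with overexpression between Parental and the knockdown experiment.

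PAM and CPE had their highest level in Parental cells. The RPKM of PAM was 116.9 ± 2.10 (SD, n = 2) there, 41.2 ± 1.51 with overexpression, 32.2 ± 0.055 in KD control and 31.2 ± 0.443 after knockdown. CPE had 35.5 ± 1.83 RPKM (SD, n = 2) in Parental cells, 20.4 ± 2.25 with overexpression, 13.0 ± 0.827 in KD control and 11.9 ± 1.14 after knockdown. KD control and knockdown overlapped for CPE and lay next to each other without overlap for PAM. Between the controls, mean RPKM was 26.4 times higher in KD control than in Parental cells for CHGB and 23.0 times higher for SCG3, whereas Parental cells held 3.63 times more PAM and 2.72 times more CPE. These ratios were not tested, since the controls differ in more than 1 respect.

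**Figure D1:**
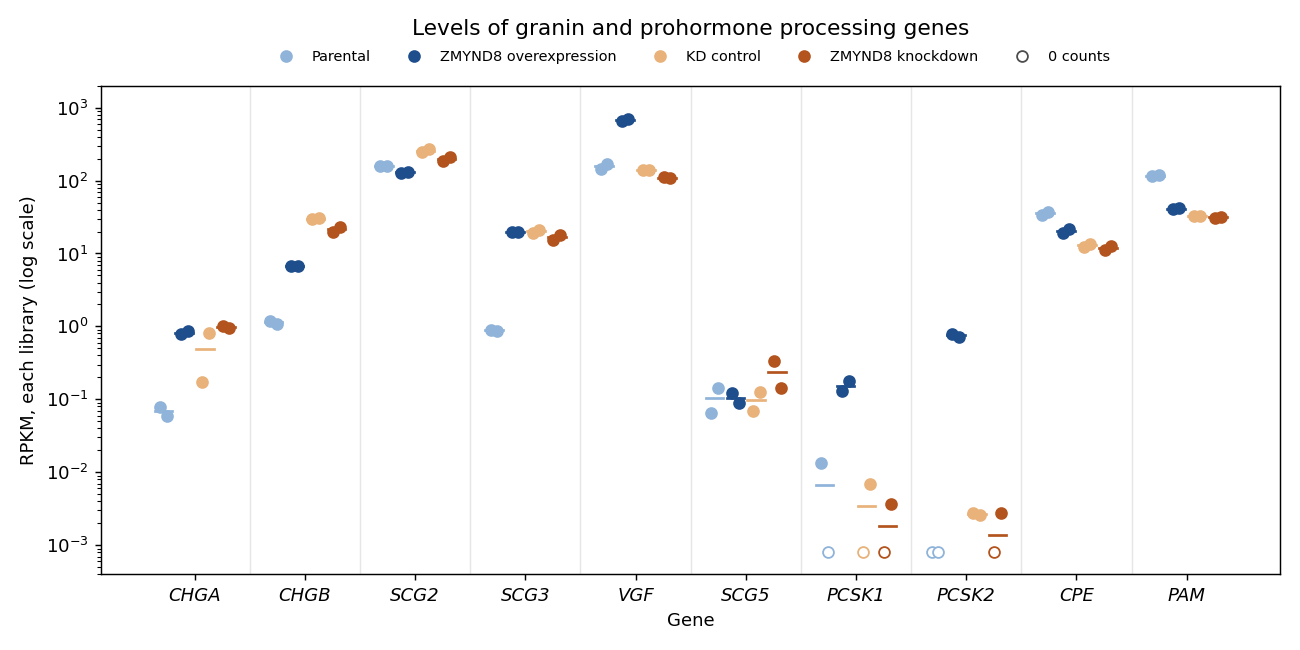
RPKM on a log axis of each of the 10 genes in every library, with the 4 groups in colours and open points for libraries with 0 counts. VGF, SCG2 and PAM lie at the top, SCG3 and CHGB are lowest in the Parental libraries, and PCSK1 and PCSK2 rise from the bottom in the overexpression libraries only.

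With ZMYND8 overexpression, 6 of the 10 genes were called higher than in Parental cells (CHGA, CHGB, SCG3, VGF, PCSK1 and PCSK2), PAM was called lower, and SCG2, SCG5 and CPE were not called. Of all 20835 genes tested in this comparison, 11.8% were called higher and 6.84% were called lower. CHGA, SCG5, PCSK1 and PCSK2 had fewer than 2 Parental libraries over the cutoff of the filter on low counts and entered the test through the overexpression libraries, so they are no support for these counts. Of the 6 genes above the cutoff in both Parental libraries, 3 were called higher and 1 was called lower. Their median log2 change was 1.00 beside 0.03 over all genes tested. This median lies between VGF at 2.20 and SCG2 at -0.20 and is near the value of no single gene. In bulk RNA, more cells of a type and more RNA per cell cannot be told apart.

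Among the granins, SCG3 (ENSG00000104112; chromosome 15, 51681492 to 51721026, plus strand, GRCh38) changed most of those counted well in both groups. Its normalised read counts were 133.6 and 130 in Parental cells and 3087 and 3168 with overexpression. The groups were far apart, with a 23.7-fold increase (log2 change 4.57 ± 0.075, SE, adjusted p = 2.98e-11, edgeR). CHGB (ENSG00000089199; chromosome 20, 5911510 to 5925353, plus strand) had 250.3 and 228.3 normalised reads in Parental cells and 1476 and 1492 with overexpression. It rose 6.21-fold, without overlap between the groups (adjusted p = 1.52e-09, edgeR).

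VGF (ENSG00000128564; chromosome 7, 101162509 to 101165569, minus strand) had the most reads of the genes that rose, 18368 and 21031 in Parental cells and 87250 and 93321 with overexpression after normalisation. The increase was 4.58-fold (log2 change 2.20 ± 0.070, SE, adjusted p = 1.46e-09, edgeR). SCG2 (ENSG00000171951; chromosome 2, 223596940 to 223602361, minus strand) went the other way by little, from 19260 and 19120 to 16564 and 16866 normalised reads. The replicates were tight and the groups did not overlap, so this 1.15-fold lower level passed the adjusted p (0.00357, edgeR) but not the fold threshold. With length and GC trends taken out, the log2 change of SCG2 was -0.10 and no longer passed (adjusted p = 0.157, edgeR).

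CHGA (ENSG00000100604; chromosome 14, 92923150 to 92935285, plus strand), whose promoter sequence was shown above, had 10 and 9 counts in Parental cells and 133 and 120 with overexpression. The increase was 12.8-fold (log2 change 3.67 ± 0.274, SE, adjusted p = 8.96e-07, edgeR). SCG5 (ENSG00000166922; chromosome 15, 32641676 to 32697098, plus strand) encodes 7B2, the chaperone that PCSK2 needs to mature. It had 6 and 16 counts in Parental cells and 15 and 9 with overexpression, and the groups overlapped (log2 change 0.09 ± 0.505, SE, adjusted p = 0.897, edgeR). The limits on both genes are given below with their neighbours.

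The 2 convertases were nearly absent from Parental cells. PCSK2 (ENSG00000125851; chromosome 20, 17226107 to 17484578, plus strand) was at 0 counts in each Parental library and had 311 and 236 counts with overexpression. Set against a floor of 3 counts per library, it was at least 87.2-fold higher (adjusted p = 3.26e-08, edgeR). SCG5, the gene of its chaperone, had 6 to 16 counts in the same 4 libraries, which are not read as its level for the reason given below. PCSK1 (ENSG00000175426; chromosome 5, 96390333 to 96434143, minus strand) had 3 and 0 counts in Parental cells and 39 and 44 with overexpression. Its ratio was 26.8, with a 95% interval of 8.86 to 132.6 that covers counting error only (adjusted p = 0.000116, edgeR). All 3 Parental counts came from replicate 1, and without Parental replicate 2 the ratio was 12.1 with an interval of 4.01 to 60.0. The mean normalised count of PCSK1 was 21.6, just over the minimum of 20, and without either of the overexpression libraries it dropped under that minimum and was no longer called. At 0.154 ± 0.033 RPKM (SD, n = 2) for PCSK1 and 0.761 ± 0.047 RPKM for PCSK2, both remained well under the levels of CPE and PAM.

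The enzymes that act after cleavage did not move up with the convertases. CPE (ENSG00000109472; chromosome 4, 165361194 to 165498547, plus strand) had 5040 and 5380 normalised reads in Parental cells and 2926 and 3457 with overexpression. This was 1.64-fold lower without overlap (log2 change -0.71 ± 0.074, SE, adjusted p = 1.27e-05, edgeR) and within the fold threshold. PAM (ENSG00000145730; chromosome 5, 102753981 to 103031105, plus strand) fell from 48254 and 49116 to 17721 and 18858 normalised reads. The decrease was 2.66-fold (log2 change -1.41 ± 0.052, SE, adjusted p = 3.54e-09, edgeR). Counted by adjusted p at any fold, 3 of the 10 genes (SCG2, CPE and PAM) were lower, and 29.1% of all genes tested passed in that direction.

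**Figure D2:**
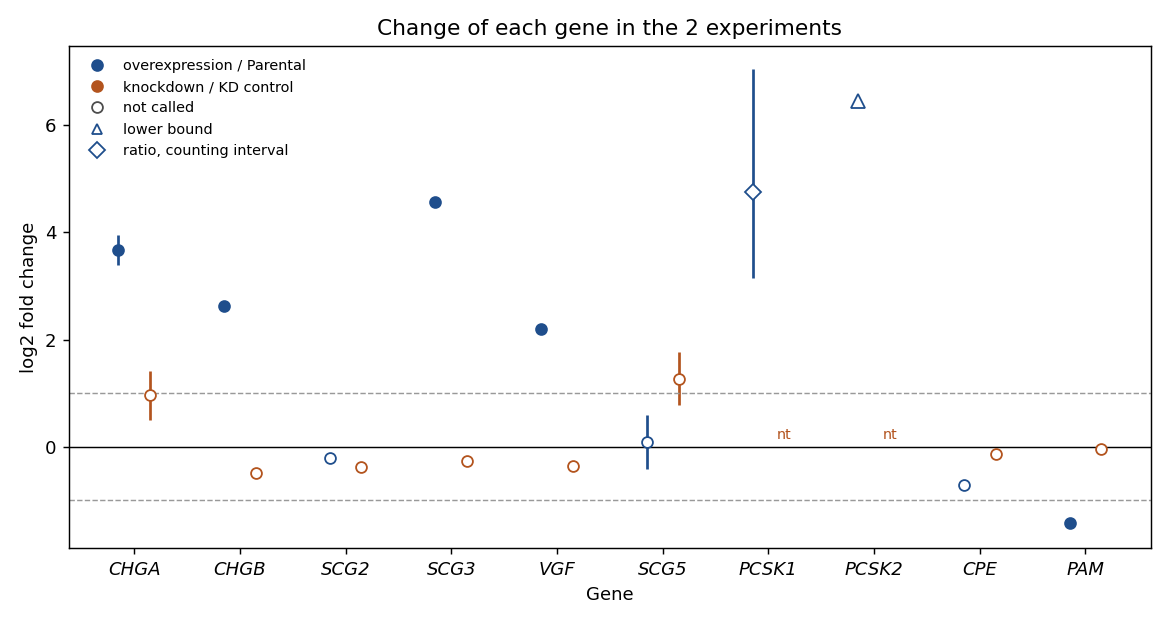
Log2 change ± SE of the 10 genes with overexpression against Parental and with knockdown against KD control, with filled points for called genes. PCSK2 is drawn as a lower bound and PCSK1 as a ratio with its counting interval, and neither was tested in the knockdown comparison. The increases of SCG3, CHGA, CHGB and VGF and the decrease of PAM with overexpression stand against knockdown changes between -0.49 and 1.27.

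CHGA and SCG5 need care in any reading of level. All of the 31-base exon sequences of CHGA, and 95.3% of those of SCG5, are found again on the 261 alternate contigs of the GRCh38 reference used here, compared with 5.04% for CHGB and less for the other members. Reads that match several places may be left uncounted, and whether the authors' index held these contigs is not given in the sources used here. Of the neighbours of CHGA within about 400 kb whose exons are wholly repeated, some scattered between replicates and others did not. ITPK1, an inositol kinase gene whose exons are wholly repeated, had 138 and 637 counts in the Parental libraries, and MOAP1, a BAX-binding protein gene also wholly repeated, had 48 and 140. UBR7, wholly repeated too, had 567 to 846 counts over the 8 libraries, with replicates close to each other. GOLGA5, a Golgi protein gene nearby that is not on these contigs, had 1643 to 3988 counts. Around SCG5, the repeated genes ARHGAP11A, a GTPase-activating protein, and GREM1, a BMP antagonist, had 38 to 106 and 25 to 125 counts. These neighbours were chosen after their values had been seen.

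Among protein-coding genes with 80% or more of their sequence on alternate contigs, 73.9% of 767 had a mean count under 20, against 30.95% of 16546 genes with under 5%. Where the mean count was 20 to 1000, the median absolute log2 ratio between replicates was 0.365 over 180 such genes and 0.141 over 4483 genes without repeats. Counts of CHGA and SCG5 were therefore not read as levels, and scatter of this kind also limits their comparison between groups. With both left out, 5 of 8 members were called higher and 1 was called lower with overexpression, beside 11.8 and 6.84% of all genes tested. The 5 include PCSK1 and PCSK2, which entered the test through the overexpression libraries and are no support for this count. Of the 6 members above the cutoff in both Parental libraries, 3 were called higher and 1 lower.

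**Figure D3:**
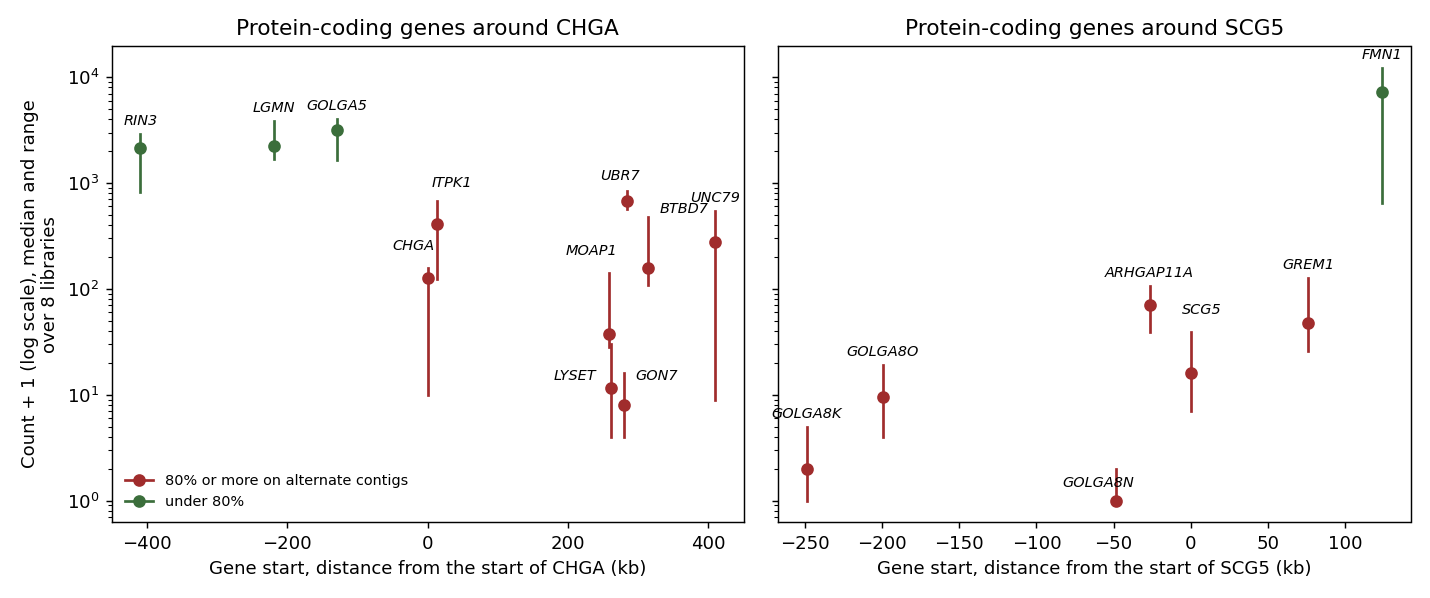
Counts plus 1 on a log axis, as median and range over the 8 libraries, of genes around CHGA and SCG5 against the distance of their starts in kb. The medians of genes with at least 80% of their exon sequence on alternate contigs (red) lie under those of the others (green), with CHGA at 9 to 156 counts and SCG5 at 6 to 38.

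With ZMYND8 knockdown, 0 of the 8 members tested were called by edgeR, and DESeq2 also called 0. Of all 19789 genes tested, 1.36% were called higher and 0.596% were called lower. At an unadjusted p under 0.05, 5 members passed, of which 4 were lower and SCG5, whose counts are not read as levels, was higher. The share of all genes at that threshold was not counted. At an adjusted p under 0.05 and any fold 4 passed, all lower, beside 10.8% of all genes tested that passed and were lower. These 4 were the granins CHGB, SCG2, SCG3 and VGF, and the count of 4 depends on SCG3, as given below. SCG5 had 1 KD control library over the cutoff of the filter, and over the other 7 members tested the median log2 change was -0.27 beside -0.01 over all genes.

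CHGB had 6929 and 7119 normalised reads in KD control and 4591 and 5380 after knockdown. The groups did not overlap, and the level was 1.41-fold lower (log2 change -0.49 ± 0.069, SE, adjusted p = 0.000537, edgeR). VGF had 19725 and 19625 normalised reads in KD control and 15565 and 15275 after knockdown, again without overlap (log2 change -0.35 ± 0.049, SE, adjusted p = 0.000523, edgeR). For SCG2 the normalised reads were 33329 and 36314 against 25345 and 28652 (log2 change -0.37 ± 0.069, SE, adjusted p = 0.00312, edgeR). SCG3 was closest to the threshold of the test, with 3213 and 3543 against 2593 and 3020 normalised reads (log2 change -0.27 ± 0.077, SE, adjusted p = 0.0281, edgeR). It no longer passed without a filter (adjusted p = 0.136, edgeR), but it passed with DESeq2 (adjusted p = 0.0178) and with a replicate block (adjusted p = 0.000649, edgeR). Leaving out single libraries gave log2 changes of SCG3 from -0.38 to -0.16. Each knockdown library lay under both control libraries for these 4 granins, and none of the 4 changes reached a log2 size of 1.

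The enzymes differed less between KD control and knockdown. PAM had 14919 and 14925 normalised reads in KD control and 14380 and 14599 after knockdown (log2 change -0.04 ± 0.048, SE, adjusted p = 0.578, edgeR). CPE had 2030 and 2227 against 1822 and 2076 normalised reads, and its groups overlapped (log2 change -0.13 ± 0.076, SE, adjusted p = 0.266, edgeR). PCSK1, with 0 and 2 counts in KD control and 0 and 1 after knockdown, and PCSK2, with 1 and 1 against 0 and 1, were too low to be tested and no ratio is given.

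CHGA turned on 1 control library. Its counts were 27 and 135 with KD control and 156 and 146 after knockdown (log2 change 0.96 ± 0.457, SE, adjusted p = 0.160, edgeR). Without KD control replicate 2 the log2 change of CHGA was 2.49, and without KD control replicate 1 it was 0.24. SCG5 had 8 and 15 counts in KD control and 38 and 16 after knockdown (log2 change 1.27 ± 0.497, SE, adjusted p = 0.0900, edgeR). Without knockdown replicate 2, the log2 changes of CHGA and SCG5 were 1.01 and 1.77. Each of these fits left 1 library in a group, so only the sizes are given. The repeats of both genes on alternate contigs are given above, and their part in this scatter was not tested.

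The overexpression effect minus the knockdown effect was tested over all 8 libraries in 1 model. The 2 manipulations were opposite in direction and unlike in size, with log2 changes of ZMYND8 itself of 5.87 and -0.94. A gene that follows ZMYND8 in both experiments therefore also gives a difference. Where the knockdown change is near 0, the difference mostly repeats the overexpression change. A difference was called at an adjusted p below 0.05 and a log2 size of at least 1, which 14.3% of 22619 genes passed with a higher and 8.79% with a lower value. Of the 10 members, CHGA, CHGB, SCG3, VGF and PCSK2 had a higher value and PAM a lower one. PCSK2 had 0 or 1 counts outside the overexpression libraries and entered the test through these, so it is no support for this count. The difference was 4.83 ± 0.124 (SE) for SCG3, 3.12 ± 0.114 for CHGB and 2.54 ± 0.090 for VGF on the log2 scale, with adjusted p of 5.43e-13, 1.45e-11 and 1.03e-11 (edgeR). For these 3 granins the means lay higher with overexpression and lower with knockdown than in the own control. For PAM it was -1.38 ± 0.072 (SE, adjusted p = 6.73e-10, edgeR), beside a knockdown change of -0.04.

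The remaining differences were less firm. PCSK2 passed (adjusted p = 0.000289, edgeR), but since its Parental and knockdown counts are 0 or 1 no size is given. PCSK1 was not called (adjusted p = 0.0605, edgeR), but it was called in 4 of 14 alternatives, 2 of which left out 1 library (Parental replicate 1, adjusted p = 0.0161, or KD control replicate 1, 0.0307). CHGA had a difference of 2.71 ± 0.727 (SE, adjusted p = 0.00629, edgeR), which was 1.17 without KD control replicate 2 and 3.42 without KD control replicate 1. CPE had -0.59 ± 0.115 (SE, adjusted p = 0.000617, edgeR), under the size threshold. The difference for SCG2 was 0.16 ± 0.089 (SE, adjusted p = 0.153, edgeR) and for SCG5 it was -1.19 ± 0.765 (SE, adjusted p = 0.220, edgeR).

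Other genes of the secretory route were counted in 3 lists written from known roles. Of all genes tested, 11.8% were called higher and 6.84% lower with overexpression, and 1.36 and 0.596% with knockdown. Of 32 genes for granule formation, granule membrane and release, 30 were tested with overexpression, of which 11 were called higher and 1 lower. The 11 were all among the 29 genes over the cutoff in both Parental libraries, whose median log2 change was 0.21. HID1, needed for granule maturation at the trans-Golgi network, had 112.2 and 119.7 normalised reads in Parental cells and 1444 and 1782 with overexpression (log2 change 3.79 ± 0.127, SE, adjusted p = 1.88e-09, edgeR). The calcium sensors of release SYT9 and SYT7 rose as well. SYT9 had 13.5 and 32.5 normalised reads in Parental cells and 445.3 and 581 with overexpression (log2 change 4.42 ± 0.268, SE, adjusted p = 1.71e-07, edgeR). SYT7 had 293 and 387.1 in Parental cells and 4220 and 4424 with overexpression (log2 change 3.66 ± 0.097, SE, adjusted p = 3.80e-10, edgeR).

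The granule membrane genes PTPRN and PTPRN2, which encode the autoantigens IA-2 and phogrin, were also called, with log2 changes of 3.30 and 2.09. The other 6 called higher were ICA1, SLC18A1, SYT4, RAB3A, BAIAP3 and CADPS2, with log2 changes from 1.09 to 3.56. These 8 genes fell outside the rule for named genes and were named after their values had been seen. The exception in direction was RAB27B, a small GTPase that docks granules at the plasma membrane. Its normalised reads were 2776 and 2671 in Parental cells and 508 and 512.2 with overexpression (log2 change -2.42 ± 0.062, SE, adjusted p = 3.20e-10, edgeR).

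RAB27B was also the only gene of the 3 lists that was called after knockdown. It had 3057 and 3020 normalised reads in KD control and 1449 and 1410 after knockdown (log2 change -1.09 ± 0.057, SE, adjusted p = 1.17e-06, edgeR). It was thus lower than its own control in both experiments, unlike SCG3, CHGB and VGF. After knockdown 29 genes of this list were tested, with a median log2 change of -0.01 over the 28 above the cutoff in both KD control libraries.

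The list of other convertases, carboxypeptidases and peptide-modifying enzymes held 16 genes, of which 15 were tested with overexpression. Of these, 3 were called higher and 1 lower, beside 11.8 and 6.84% of all genes tested. Of the 13 over the cutoff in both Parental libraries, 1 was called higher, with a median log2 change of -0.22 over the 13. PCSK1N, which encodes proSAAS, an inhibitor of PCSK1, had 446.7 and 443.7 normalised reads in Parental cells and 1870 and 1929 with overexpression (log2 change 2.09 ± 0.069, SE, adjusted p = 1.72e-09, edgeR). PCSK1 and the gene of its inhibitor were therefore both called higher, with the inhibitor at far more reads. PCSK5 and PCSK6, also called higher, had 2.79 to 20.2 normalised reads in the Parental libraries, entered the test through the overexpression libraries and were named after their values had been seen. After knockdown 0 of 13 genes tested in this list were called, with a median of 0.07.

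In the list of 9 genes for PAM partners and for the supply of copper and ascorbate, its cofactors, 0 were called higher and 2 lower with overexpression, with a median log2 change of -0.14. RASSF9, also known as P-CIP1, binds the cytosolic tail of PAM. It had 475.9 and 447.4 normalised reads in Parental cells and 65.4 and 44.8 with overexpression (log2 change -3.05 ± 0.173, SE, adjusted p = 1.01e-07, edgeR). UHMK1, the kinase known as P-CIP2, had 29196 and 28538 in Parental cells and 12791 and 11468 with overexpression (log2 change -1.25 ± 0.059, SE, adjusted p = 2.42e-08, edgeR). After knockdown 0 of 9 were called, with a median of -0.08.

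**Figure D4:**
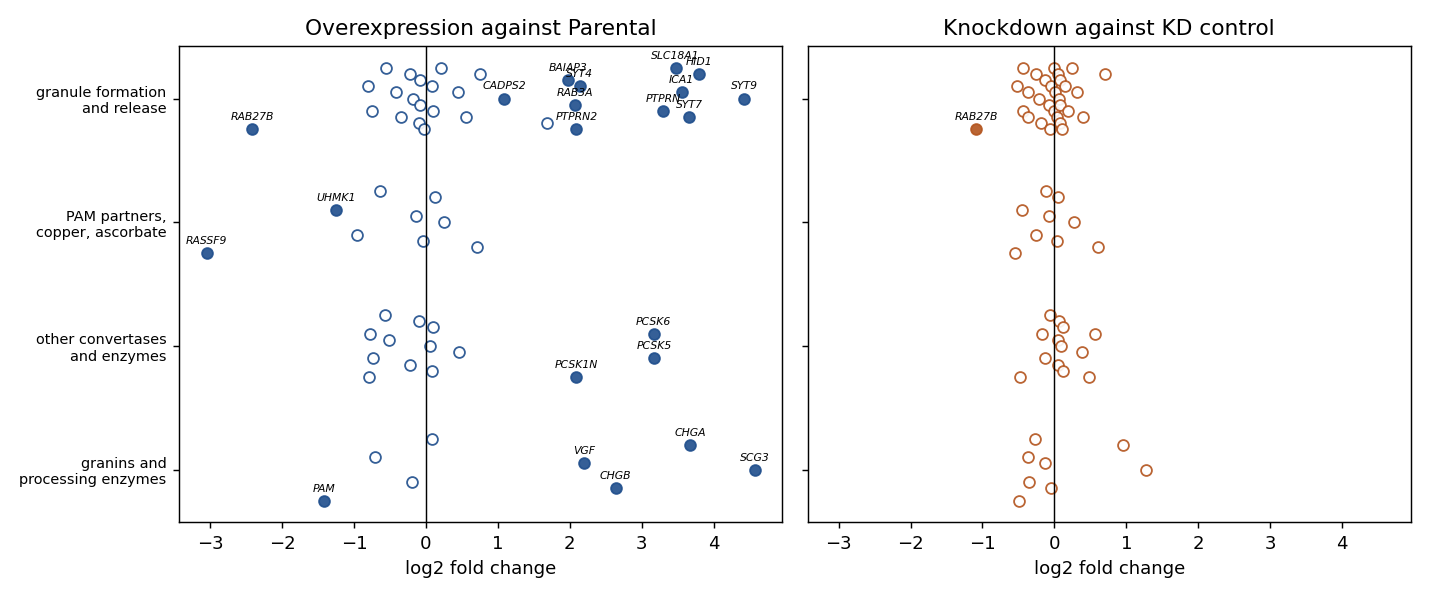
Log2 change of genes of the 3 lists and of the members, with overexpression against Parental and with knockdown against KD control, filled where called. Points spread from about -3 to above 4 with overexpression and from -1.09 to 1.27 with knockdown, where RAB27B is the filled one. Genes not tested, the low-count convertases PCSK1 and PCSK2 and 1 other gene are not drawn.

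Markers of the cell states that SK-N-SH cultures can hold changed as well. Of 10 adrenergic neuroblastoma markers, 9 were tested with overexpression. Of these, 5 were called higher and TBX2 lower, beside 11.8 and 6.84% of all genes tested. Among the 8 over the cutoff in both Parental libraries, 4 were called higher, including HAND2, GATA2 and DBH. The summed level of all 10, in counts scaled to library size (CPM), was 625.3 to 655.9 in Parental cells and 1212 to 1245 with overexpression. It was 856.9 to 891 in KD control and 658.3 to 722.8 after knockdown. TH, which encodes the rate-limiting enzyme of catecholamine synthesis, had at most 5 counts in the overexpression experiment and 0 in the knockdown experiment.

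Of 10 mesenchymal markers, 7 were called lower and TWIST1 was called higher with overexpression. Their summed level was 9833 to 10509 CPM in Parental cells, 3281 to 3527 with overexpression, 4826 to 4959 in KD control and 6040 to 6424 after knockdown. With knockdown, 0 genes of either list were called, and the median log2 change was -0.31 for adrenergic and 0.37 for mesenchymal markers. Among the mesenchymal markers PRRX1, SNAI2 and TWIST1 went the other way, at -0.98, -0.41 and -0.16, and the rest were higher. Schwann cell markers summed to 2.30 to 8.62 CPM over the 8 libraries, 2 of the 4 tested (S100B and ERBB3) were called higher with overexpression, S100B having entered the test through the overexpression libraries, and the defining genes SOX10 and CDH19 had at most 1 and 2 counts. The part of these cell states in the changes of the granins and enzymes was not tested.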

How the data were processed

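The authors deposited 1 table of read counts per gene for all 8 libraries, as whole numbers without normalisation, with gene coordinates and exon lengths. Per the methods, rRNA-depleted total RNA was sequenced in paired ends, Trim_Galore was used for trimming, reads of a Phred score under 25 were dropped, and Hisat2 mapped the rest to GRCh38 and featureCounts assigned them to genes of GENCODE release 28. Whether the identifiers of the table are those of that release was not checked here. The strand setting is not given in the sources used here. Of 60662 lines, 3 belonging to 1 split gene were left out. Symbols came from GENCODE release 44, which matched 60418 genes. Of the exon bases of PCSK2 and SCG5, 0.569 and 0.501% lie opposite another gene.

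Counts of each comparison were filtered with filterByExpr, normalised with TMM and tested two-sided with the quasi-likelihood test of edgeR 4.0.16 (limma 3.58.1, R 4.3.3), with Benjamini-Hochberg adjustment over all genes tested. DESeq2 1.42.0 was an alternative. The calls used an adjusted p below 0.05, an absolute log2 change of at least 1 and a mean above 20. RPKM used TMM sizes over 8 libraries. Groups followed the treatment labels. The labels name 2 biological replicates per group without saying what separates them, and p-values measure the spread between these. Replicates differed beyond counting noise, with a chi-square of 6.05 to 8.86 per degree of freedom. The common coefficient of variation between replicates estimated by edgeR was 0.057 to 0.061. Neither value can show whether replicates came from separate cultures. Each was counted as a sample of its own because the labels name biological replicates.

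The text names all 10 members and, from each list, up to 3 called genes per direction with the largest change and a mean above 100. The members and lists were chosen with earlier results of these data known. The scripts were tested on simulated counts. Repeats were counted as shared 31-base sequences. Some list genes are not reported here by name. No explanation was tested.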

Additional observations from a re-analysis of the deposited data

How the results depend on the processing

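The number of members called with overexpression, 7 in the values above, was 6 with all 8 libraries in 1 fit, 6 at a log2 threshold of 1.5, 9 with no fold threshold and 6 with CHGA and SCG5 left out, an alternative chosen after seeing the data. Leaving out single libraries gave 6 to 7, and the call lost was PCSK1, whose mean fell under 20. With knockdown, 0 members were called under either other normalisation, without a filter, with DESeq2, with a replicate block and with length and GC trends taken out, but 4 were called with no fold threshold and 0 to 2 on leaving out single libraries, these being CHGA and SCG5. In fits of 3 libraries the lone library was assumed to vary like the others, and a gene's spread was drawn toward that of other genes. The overexpression change of SCG5 was 0.09 in the values above, -0.35 without Parental replicate 1, 0.79 without Parental replicate 2 and -0.16 without overexpression replicate 1. The count of 6 members with a difference between the effects became 7 without a filter, with DESeq2, without Parental replicate 1 and without KD control replicate 1, where PCSK1 was added, and 5 with CHGA and SCG5 left out.

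Genes called over the whole table numbered 3876 with overexpression (3608 to 4113 over the alternatives), 388 with knockdown (282 to 462) and 5229 for the difference (4425 to 5591). The change of VGF with overexpression was 1.63 with length and GC trends taken out. Replicate numbers are shared between groups in the labels. The deviations of same-numbered libraries correlated at 0.080 in the overexpression and 0.149 in the knockdown experiment over 2 pairs each. This does not settle whether they pair, and the main fits treated them as sharing only a number. With the replicate block 7, 0 and 6 members and 3886, 393 and 5119 genes were called in the 3 comparisons, and no member changed its call. In the knockdown experiment the block lowered the SE of CHGB to 0.047, of SCG2 to 0.045, of SCG3 to 0.040 and of CPE to 0.046. That of SCG5 rose to 0.519. The changes of CHGB, SCG2, SCG3 and CPE were under a log2 size of 1 in either fit, so their calls could not differ. Of 338 member values under the alternatives, 326 kept direction and side of the threshold, 3 lost it, 7 gained it and 2 reversed. With 2 libraries per group and few counts, changes of PCSK1 and SCG5 were not detectable with precision at this depth.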
